A study of Mus musculus with 7 samples.

Results

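The Rab GTPase genes of mouse haematopoietic stem cells (HSCs) were compared between old and young animals. Members were the rows of the deposited count table whose symbol is Rab followed by a number and at most 1 further letter, leaving out Rab7 and Rab27b, which gave 55 of the 24015 genes of the table. The HSCs came from C57BL/6 mice and had been sorted on the phenotype LSKCD150+CD48-, where LSK stands for the lack of lineage markers together with Sca-1 and c-Kit. Their polyadenylated RNA was sequenced in bulk as 3 libraries of old and 4 of young HSCs, and no genetic change or treatment is labelled in either group. The comparison asks how transcription in HSCs changes with age. The labels give neither the ages nor the number of animals behind a library, so a p-value measures the spread between samples only, and that spread may be technical.

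Rab proteins are small GTPases that sit on the membranes of distinct organelles and act as switches. In the GTP-bound state a Rab recruits effectors, such as tethers, motors and lipid enzymes, which form, move and fuse vesicles. Exchange factors turn Rabs on, GTPase-activating proteins turn them off, and a dissociation inhibitor returns them to the cytosol. In blood cells Rab proteins direct the uptake and recycling of surface receptors, the release of granules, and traffic to lysosomes and related organelles.

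Libraries held 22203806 to 32401925 counts, and levels are given as CPM, the count of a gene scaled to library size, here with trimmed mean of M values (TMM) factors. A library without any count of a gene allowed a level of up to 0.0929 to 0.137 CPM, the worth of 3 counts, which covers counting error only. Markers of HSCs summed to 2930 to 3091 CPM in old and 1751 to 2717 CPM in young libraries, and all 9 had counts. Markers of multipotent progenitors (Cd34, Flt3, Cd48) summed to 85.2 to 135 CPM in old and 261 to 406 CPM in young libraries. Of 10 myeloid markers 4 were tested, and Prtn3, a granule protease, passed the threshold (edgeR adjusted p = 0.0242). It had 546 to 772 CPM in old and 98.4 to 206 CPM in young libraries. The other tested markers overlapped between the groups, with log2 fold changes (old minus young) of 0.40 for Lyz2, -2.44 for S100a8 and -0.29 for Ms4a3. Ctsg and Csf1r had no count in any library, and Mpo had none in the old libraries, young 3 and young 4. The HSC marker Procr also passed (edgeR adjusted p = 0.00643), with 290.1 to 384 CPM in old and 40.2 to 66.1 CPM in young libraries. Erythroid markers summed to 11.1 to 49.4 CPM in old and 71.6 to 109.9 CPM in young libraries. T and NK cell markers summed to 214 to 273 CPM in old and 65.4 to 382 CPM in young libraries. Among them, Klrb1c had 109 to 238 CPM in old and 0 to 12.2 CPM in young libraries (edgeR adjusted p = 0.324). Nkg7 went the other way, with 21.3 to 105 CPM in old and 65.4 to 382 CPM in young libraries (edgeR adjusted p = 0.605). Cd3e, Cd8a, Ncr1 and Prf1 had no count in any library. The part of these marker differences in the Rab values was not tested. In bulk RNA, a change in the share of cells of one kind and a change in RNA per cell cannot be told apart. Young 1 stood apart from the other libraries on the first principal component (score 128.8 against -69.0 to 19.8) and young 2 on the second (107.9 against -72.3 to 27.5), so results were also computed without them.

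Of the 55 Rab genes, 46 had enough counts to be tested. The edgeR quasi-likelihood test called 0 of them at an adjusted p under 0.05, where 29 of 11506 tested genes (0.252%) were called. At an unadjusted p under 0.05 there were 6, or 13.0% of the members against 9.12% of all tested genes. Of these, 4 were higher in old HSCs (4.62% of all tested genes) and 2 lower (4.49%). DESeq2 called 3 members, Rab11a, Rab38 and Rab20, all higher in old HSCs, where it called 591 of 11681 genes (5.06%, with 2.45% higher). Limma-voom called 0 members (0.435% of all tested genes). An edgeR fit restricted to genes whose mean reached 50 CPM called 2 of its 23 members, Rab11a and Rab38, both higher, against 2.88% of 4508 genes (1.75% higher). For 7 members (15.2%) the groups were fully apart, which held for 12.7% of all tested genes. Of these, 6 were higher in old HSCs (7.55% of all tested genes) and 1 lower (5.18%). They were Rab11a, Rab38, Rab24, Rab20, Rab34, Rab44 and Rab37. Rab34 and Rab44 passed the filter on low counts only with their old libraries, so part of their separation was set by the filter. The same filter applied to all tested genes.

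**Figure D1:**
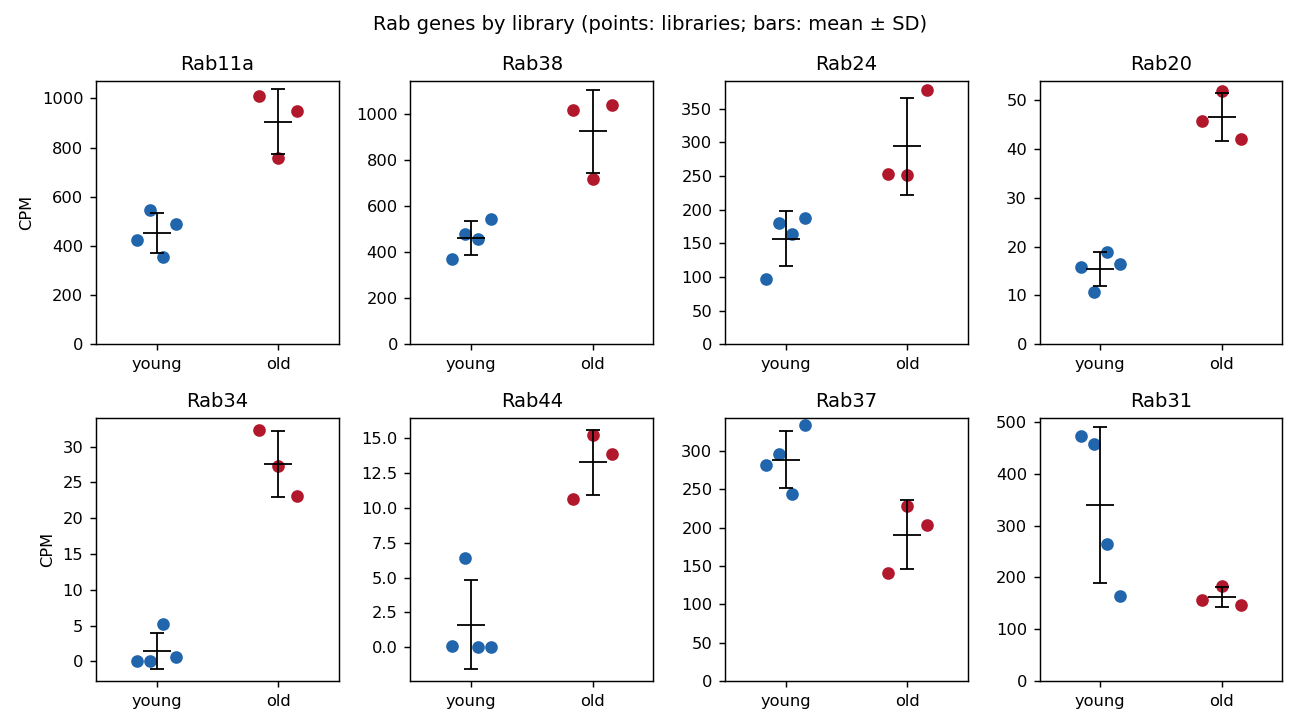
Levels of 8 Rab genes in CPM (y axis, linear, separate scale for each gene) in the 4 young and 3 old libraries. Points are libraries and bars are mean ± SD. The first 6 genes are higher in every old than in every young library, Rab37 is lower in every old library, and the groups overlap for Rab31, where young 4 (164 CPM) lies between old libraries.

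The promoters of 3 of the genes that stand out below are shown for the window of 250 bases before the annotated start, with that of Rab11b, the close relative of Rab11a whose groups overlapped. Sequences are from RefSeq on build GRCm38.p6, which is not the mm9 build of the counts, and run 5′ to 3′ on the gene's strand. Capitals mark matches on either strand to the E-box CACGTG, the cyclic AMP response element TGACGTCA, the GC box GGGCGG, the CCAAT box CCAAT and the TATA box TATAAA.
Rab11a, chr9:64737757-64738006, minus strand: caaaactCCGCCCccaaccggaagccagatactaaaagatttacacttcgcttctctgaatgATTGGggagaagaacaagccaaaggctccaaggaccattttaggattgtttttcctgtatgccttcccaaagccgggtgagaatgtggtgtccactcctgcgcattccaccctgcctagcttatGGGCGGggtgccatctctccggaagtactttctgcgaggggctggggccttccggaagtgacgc
Rab11b, chr17:33760487-33760736, minus strand: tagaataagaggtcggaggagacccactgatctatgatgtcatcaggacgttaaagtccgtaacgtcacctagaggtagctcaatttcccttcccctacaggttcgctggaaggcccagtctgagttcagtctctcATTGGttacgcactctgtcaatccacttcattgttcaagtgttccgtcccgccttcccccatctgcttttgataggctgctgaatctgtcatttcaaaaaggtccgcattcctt
Rab20, chr8:11478641-11478890, minus strand: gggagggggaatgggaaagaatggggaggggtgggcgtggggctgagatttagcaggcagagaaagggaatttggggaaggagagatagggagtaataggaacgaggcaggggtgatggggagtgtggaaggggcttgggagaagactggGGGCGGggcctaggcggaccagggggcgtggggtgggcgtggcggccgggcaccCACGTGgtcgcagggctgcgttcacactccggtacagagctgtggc
Rab31, chr17:65772753-65773002, minus strand: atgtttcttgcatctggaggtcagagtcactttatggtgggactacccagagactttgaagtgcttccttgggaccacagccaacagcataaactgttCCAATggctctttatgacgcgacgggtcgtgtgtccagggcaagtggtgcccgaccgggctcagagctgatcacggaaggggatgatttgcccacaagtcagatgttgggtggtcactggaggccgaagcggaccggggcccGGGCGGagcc
The window of Rab11a holds 2 GC boxes and 1 CCAAT box, that of Rab11b 1 CCAAT box and no GC box, that of Rab20 1 E-box and 1 GC box, and that of Rab31 1 GC box and 1 CCAAT box. RefSeq windows were kept for 46 of the 55 members, some with several starts, and Rab38 was among those without a window. Of their 57 windows 68.4% held a GC box, 40.4% a CCAAT box, 8.8% an E-box, 5.3% a TATA box and 3.5% a cyclic AMP response element. Over the 32841 windows kept for all genes the shares were 32.7%, 33.9%, 6.0% and, for the last 2 motifs in that order, 12.4% and 1.5%. Windows of 1 chromosome, and incomplete windows or those with unclear bases, were left out of both sets. A member without a window may thus still have a RefSeq entry. A GC box and a CCAAT box stood both in the window of Rab11a, with a positive log2 fold change, and in that of Rab31, with a negative one. No motif was tested against the expression values.

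Recycling Rabs return internalised receptors and lipids to the cell surface. None of the 7 tested members passed the edgeR threshold, 3 had a positive and 4 a negative log2 fold change (old minus young), and the median was -0.12, or 0.14 without old 1 and 0.10 without young 1. Rab11a, the central Rab of the slow recycling endosome, had the smallest p of all members. Its level was 1009, 758 and 949.6 CPM in the old libraries and 423, 544, 356 and 489.8 CPM in the young. Every old library was above every young one (758 CPM in the lowest old and 544 CPM in the highest young library). The means were 906 ± 131 CPM (SD, n = 3) and 453 ± 81.4 CPM (SD, n = 4), a log2 fold change of 0.998 ± 0.212 (SE, edgeR adjusted p = 0.138). DESeq2 called it higher (adjusted p = 2.09e-04), also in each of the 7 fits without 1 library (adjusted p up to 0.0123). The edgeR fit to genes of at least 50 CPM called it with all libraries (adjusted p = 0.0300) and in 2 of the 7 fits without 1 library.

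Rab11b, which encodes a protein closely related to Rab11a, overlapped between the groups. It had 253, 259 and 342 CPM in the old and 239.7, 306, 286 and 258 CPM in the young libraries (log2 fold change 0.06 ± 0.21, adjusted p = 0.985). The ratio of Rab11a to Rab11b counts, which does not depend on the scaling of the libraries, was 3.997, 2.93 and 2.78 in the old and 1.77, 1.78, 1.25 and 1.90 in the young libraries. Rab4a and Rab4b act on the fast recycling route. Rab4a averaged 154 ± 28.2 CPM (old) and 122 ± 50.9 CPM (young) (log2 fold change 0.34 ± 0.34, adjusted p = 0.915). Rab4b averaged 188 ± 23.99 and 219 ± 47.1 CPM, with a log2 fold change of -0.22 ± 0.24 (adjusted p = 0.927). Neither gene separated the groups alone, but their ratio did, with 0.776, 0.863 and 0.804 in the old and 0.423, 0.697, 0.570 and 0.479 in the young libraries. Most of the annotated exons of Rab4b (65.0%, GENCODE M21) are shared with the readthrough model Gm21983 on the same strand, which the count table does not list, so its counts may hold reads of that transcript. Rab14, which acts between endosomes and the Golgi, was among the steadiest members, with 277 ± 36.3 CPM (old) and 302 ± 47.7 CPM (young) (adjusted p = 0.970). Rab35 and Rab17 had log2 fold changes of -0.12 and -0.27 with overlapping groups, and Rab15 and Rab25 had no count in any library.

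Ratios within a library were formed for 11 pairs of related Rab genes. The groups did not overlap for 2 of them, Rab11a to Rab11b and Rab4a to Rab4b. These ratios are given as a description, without a test. The share of separated ratios among other gene pairs was not computed, so the count of 2 has no background to be read against. Since Rab11b differed little between the groups, its ratio largely repeats the separation of Rab11a. Rab1 to Rab1b overlapped through young 2 alone, with 2.73, 1.503 and 1.84 in the old and 0.931, 1.51, 0.611 and 1.06 in the young libraries. Rab38 to its relative Rab32 was 4.24, 2.84 and 3.54 in the old and 3.67, 1.52, 1.67 and 2.22 in the young libraries, where young 1 lay among the old. Ratios of Rab5a to Rab5b, of Rab2a to Rab2b, of Rab6a to Rab6b and of Rab8a to Rab8b overlapped.

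**Figure D2:**
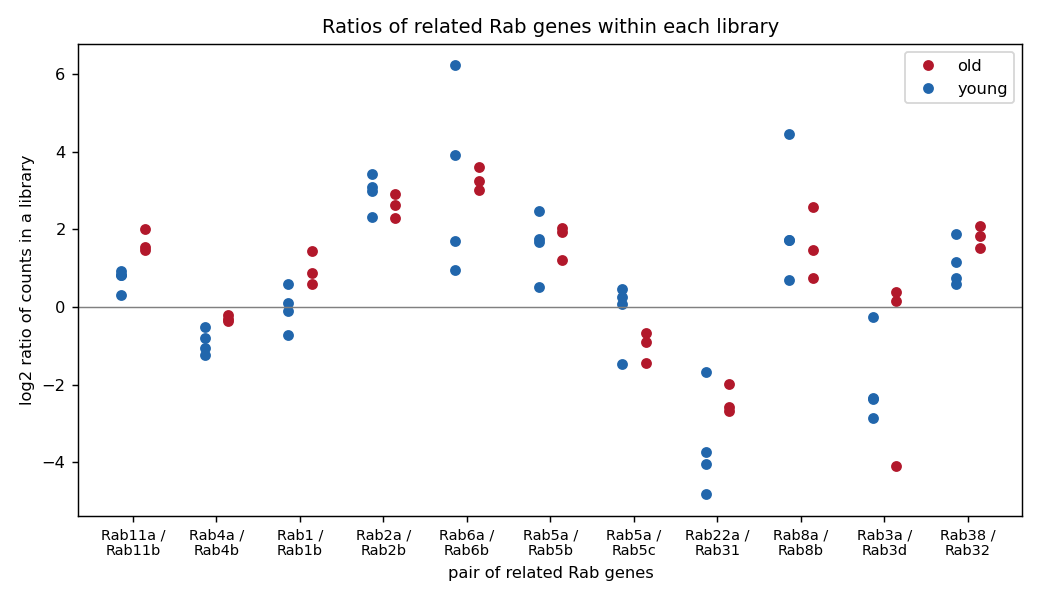
Log2 ratio of the counts of 2 related Rab genes within each library (y axis) for 11 pairs (x axis), with young libraries in blue and old in red. The old points lie above all young points for Rab11a to Rab11b (ratios of 2.78 to 3.997 against 1.25 to 1.90) and for Rab4a to Rab4b (0.776 to 0.863 against 0.423 to 0.697).

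Rabs of the late endosome, lysosome, autophagosome and lysosome-related organelles had 5 tested members, all with a positive log2 fold change. The median was 0.21, and edgeR called none. The sign of Rab12 and of Rab32 differed between fits without 1 library. Rab7, a late endosome Rab left out of the members, had a log2 fold change of -0.40 ± 0.30 (edgeR adjusted p = 0.849) with overlapping groups. Rab38 acts with Rab32 in the biogenesis of lysosome-related organelles such as melanosomes. It had 1019, 716 and 1039 CPM in the old and 368, 477, 457 and 543 CPM in the young libraries. The groups did not overlap. The means were 925 ± 181 and 461 ± 71.9 CPM, a log2 fold change of 1.004 ± 0.217 (edgeR adjusted p = 0.138). DESeq2 called Rab38 higher (adjusted p = 3.03e-04), also in each of the 7 fits without 1 library (adjusted p up to 0.0187), and the edgeR fit to genes of at least 50 CPM did so with all libraries (adjusted p = 0.0393) and in 2 of 7 fits without 1 library. Rab32, in contrast, had 240.3, 252 and 294 CPM in the old and 100.3, 315, 273 and 244 CPM in the young libraries (log2 fold change 0.17 ± 0.35, adjusted p = 0.976). Summed markers of megakaryocytes, another cell type that builds lysosome-related organelles, overlapped, with 185 to 371 CPM in old and 234 to 579 CPM in young libraries. Gp9, higher in every old library, and Itgb3 had positive log2 fold changes (0.175 and 1.51). Those of Pf4, Ppbp, Gp1ba, Gp1bb and Treml1 were negative. The part of these markers in the Rab38 level was not tested.

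Rab24, a Rab linked to autophagy, had 253, 251 and 377 CPM in the old and 97.4, 180.0, 163 and 187 CPM in the young libraries. The groups did not overlap, with young 1 the lowest and old 3 the highest. The log2 fold change was 0.91 ± 0.28 (edgeR adjusted p = 0.295, DESeq2 adjusted p = 0.0770), and it ranged from 0.69 without old 3 to 1.001 without young 4. In the GENCODE M21 annotation 62.4% of the exon bases of Rab24 overlap Prelid1, a mitochondrial lipid transfer gene on the opposite strand. The library kit does not mark strand, so reads there cannot be told apart. Whether reads over both genes were counted or dropped is not given in the sources used here, so the exon length behind the Rab24 counts is unknown. Prelid1 had 351, 213 and 236 CPM in the old and 118, 168, 149 and 174 CPM in the young libraries (log2 fold change 0.81 ± 0.26), and how much it contributed to the Rab24 difference was not tested. Rab9, which returns receptors from late endosomes to the Golgi, was at 52.7 ± 4.05 and 45.6 ± 12.04 CPM (adjusted p = 0.974). Rab12 ranged from 0 (old 3) to 45.5 CPM (old 2), so its spread covered both groups, and Rab9b had no count.

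Early endosome Rabs receive cargo taken up from the surface. Of 7 tested members 4 had a positive and 3 a negative log2 fold change (median 0.05), and none passed the edgeR threshold. The sign of this median was not stable, with -0.116 without old 3, -0.147 without young 1, -0.156 without young 3 and 0.23 without young 4. Rab5a, Rab5b and Rab5c encode the Rab5 proteins that define the early endosome. Rab5c averaged 123 ± 27.7 CPM (old) and 90.8 ± 28.1 CPM (young) (log2 fold change 0.44 ± 0.32, adjusted p = 0.831). Rab5a averaged 61.1 ± 13.2 and 81.9 ± 25.2 CPM (-0.42 ± 0.38) and Rab5b 18.4 ± 3.32 and 26.7 ± 7.33 CPM (-0.54 ± 0.67). The groups of all 3 genes overlapped, so none of them stood out from the spread between libraries. Rab21 and Rab22a, which also act on early endosomes, had log2 fold changes of 0.26 and 0.05.

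Rab20, an endosome and phagosome Rab, had 45.7, 51.9 and 42.1 CPM in the old and 15.7, 10.7, 18.9 and 16.5 CPM in the young libraries. Each old library held more than any young one. The log2 fold change was 1.59 ± 0.57 (edgeR adjusted p = 0.372). DESeq2 called it higher (adjusted p = 0.00786), but in only 3 of the 7 fits without 1 library, those without young 1, young 2 or young 3 (adjusted p of 0.0124 to 0.121 over the 7). In GENCODE M21, 25.6% of its exon bases overlap the antisense transcript E230013L22Rik, which the count table does not list. Rab31, which carries cargo from the trans-Golgi to endosomes, had a negative log2 fold change. It had 156, 183 and 147 CPM in the old and 474, 458, 264 and 164 CPM in the young libraries. Young 4 lay among the old libraries, and young 1 and young 2, the libraries that stand apart, held the highest levels. The log2 fold change was -1.07 ± 0.37 (edgeR adjusted p = 0.343, DESeq2 adjusted p = 0.0759). Without young 1 and young 2 together it was -0.41, and without young 4 it was -1.30, where DESeq2 called Rab31 lower.

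Rabs of the route from the endoplasmic reticulum (ER) through the Golgi had 13 tested members, 11 of them with a positive log2 fold change. The median was 0.43, and edgeR called none. Their spread was wide, and 5 of the 13 had no count in at least 1 library. Rab34, a Golgi Rab also known in lysosome positioning and cilium formation, had 32.4, 27.3 and 23.1 CPM in the old libraries. Young 1 and young 2 had no count of it, young 3 had 5.17 CPM and young 4 had 0.592 CPM. The groups did not overlap, and the old mean was 19.2-fold the young mean (log2 fold change 4.25 ± 1.98, edgeR adjusted p = 0.578, DESeq2 adjusted p = 0.185). Without young 3 the fitted log2 fold change was 7.07, and DESeq2 then called it higher. The young libraries alone would not have passed the filter on low counts, for Rab34 or for Rab44 below.

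Rab1 and Rab1b, which control transport from the ER to the Golgi, had log2 fold changes of opposite sign, and the groups of both overlapped. Rab1 (the symbol of the table for Rab1a) averaged 297 ± 58.2 CPM (old) and 219.6 ± 60.4 CPM (young) (log2 fold change 0.43 ± 0.27, adjusted p = 0.763). Rab1b averaged 149.8 ± 16.4 and 228 ± 70.9 CPM, with a log2 fold change of -0.60 ± 0.30 (adjusted p = 0.615), with young 2 (128 CPM) below all old libraries and the other young libraries above them (239.9 to 297 CPM). DESeq2 called Rab1b lower only without young 2. Rab2a, which acts in ER to Golgi traffic and in autophagosome clearance, averaged 785 ± 85.5 and 631 ± 110 CPM (adjusted p = 0.777). Rab2b averaged 133 ± 41.8 and 85.5 ± 36.2 CPM, with a log2 fold change of 0.63 ± 0.38 (adjusted p = 0.738), with young 2 (134.8 CPM) inside the range of the old libraries. In GENCODE M21, 59.3% of the exon bases of Rab2b overlap the unclassified model Gm43766 on the opposite strand, which the count table does not list. Rab6a, which drives traffic within and back from the Golgi, was lowest in young 1 (13.0 CPM). It had 65.9 to 135 CPM in young 2 to young 4 and 94.6 to 136 CPM in the old libraries. Of its exon bases in GENCODE M21, 19.0% overlap the protein-coding gene Mrpl48 on the opposite strand, which the count table lists. Mrpl48 averaged 95.6 ± 18.3 CPM (old) and 118 ± 60.2 CPM (young), and its part in the Rab6a level was not tested. Rab19 and Rab36 had no count in old 3, young 1 and young 2, so their log2 fold changes of 2.81 and 2.19 rested on the libraries that held any. Rab18 averaged 318 ± 6.66 CPM (old) and 258 ± 79.6 CPM (young). The log2 fold changes of Rab33b (-0.83), Rab6b (0.42), Rab39b (0.74) and Rab43 (0.30) all came with overlapping groups. In GENCODE M21, 75.4% of the exon bases of Rab43 overlap the protein-coding model Gm45140 on the same strand, which the count table does not list. Rab30 had 12 counts, all in young 3, Rab33a had counts in old 2 and young 3 alone, and Rab39 had none.

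Secretory Rabs bring vesicles and granules to the plasma membrane. Of 9 tested members 4 had a positive and 5 a negative log2 fold change (median -0.02), and none passed the edgeR threshold. Rab37, known from secretory granules of mast cells and other leukocytes, was the only member that was lower in every old than in every young library. It had 140.5, 228 and 204 CPM in the old and 282, 296, 244 and 334 CPM in the young libraries. The gap between the groups was small, from 228 CPM in old 2 to 244 CPM in young 3 (log2 fold change -0.60 ± 0.24, edgeR adjusted p = 0.444, DESeq2 adjusted p = 0.150). Rab44, a large Rab with calcium-binding motifs, had 10.7, 15.2 and 13.8 CPM in the old libraries. In the young it had 0.131, 6.39, 0 and 0 CPM, so young 2 was high for its group and still below all old libraries (log2 fold change 3.02 ± 2.25, edgeR adjusted p = 0.843). Without young 2 the fitted log2 fold change was 8.14, and DESeq2 then called it higher. Rab3d, of regulated exocytosis, averaged 26.9 ± 7.33 CPM (old) and 59.5 ± 31.004 CPM (young), with 93.0 and 78.1 CPM in young 3 and young 4 (log2 fold change -1.14 ± 0.56, adjusted p = 0.614).

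Rab8a and Rab10, of the constitutive route to the surface, overlapped between the groups. Rab8a averaged 244 ± 91.8 CPM (old) and 246 ± 32.2 CPM (young), a log2 fold change of -0.02 ± 0.27, and Rab10 averaged 144.5 ± 16.8 and 169 ± 45.2 CPM. Rab8b had 13.3 CPM in young 1 and 58.1 to 131 CPM in the 6 other libraries. Rab27a, which docks secretory lysosomes, was likewise lowest in young 1 (4.42 CPM), with 22.9 to 34.6 CPM in the other young libraries and 9.37 to 33.2 CPM in the old. Rab3a and Rab13, with log2 fold changes of 0.29 and -0.47, overlapped between the groups as well. Markers of mast cells and basophils summed to 20.2 to 66.8 CPM in old and 0 to 10.4 CPM in young libraries. These sums came from Cpa3 and Fcer1a alone, since the 5 other markers (Cma1, Mcpt8, Prss34, Ms4a2 and Gzmb) had no count in any library. The part of such markers, and of Prtn3, in the levels of Rab44 and Rab37 was not tested. Rab3b and Rab3c, known from neurons and endocrine cells, had no count in any library, and Rab26 had counts in old 2 and young 4 alone.

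Of the members with other roles, Rab28 and Rab23 are tied to the cilium, and Rab40b and Rab40c encode parts of ubiquitin ligases. Of the 5 tested, 4 log2 fold changes were positive (median 0.35), and edgeR called none. The median ranged from 0.008 without old 1 to 0.615 without young 4. Rab28 averaged 178 ± 15.998 and 149 ± 32.8 CPM, with a log2 fold change of 0.26 ± 0.24 (adjusted p = 0.903). Rab23 (0.35 ± 1.12) and Rab40b (0.47 ± 1.62) were sparse, with 0.685 CPM of Rab23 in young 2 and no count of Rab40b in young 1. Rab40c had 56.2 and 62.0 CPM in old 1 and old 3 and 0.0929 CPM in old 2. This level differed within the old group by more than the group means (39.4 and 30.8 CPM) differed from each other. The highest level of Rab42 in any library was 2.40 CPM.

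**Figure D3:**
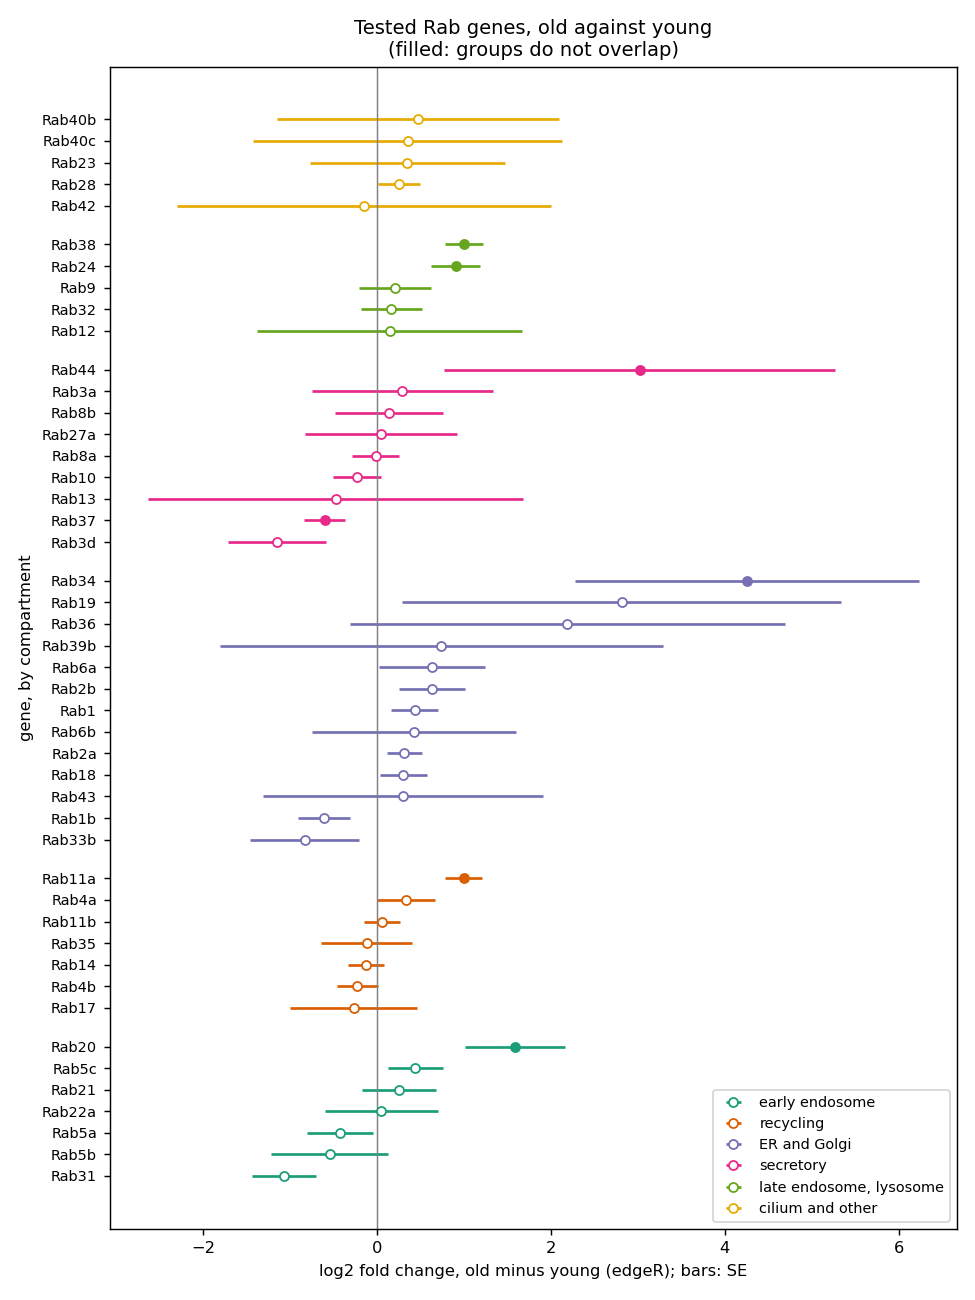
Log2 fold change (x axis, old minus young, edgeR) ± SE of the 46 tested Rab genes, ordered by compartment (y axis, colours). Filled points mark the 7 genes whose old and young libraries did not overlap, from Rab37 (-0.60) to Rab34 (4.25). Long bars belong to genes with no count in some libraries.

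Over all 46 tested members 31 log2 fold changes were positive (67.4%, against 48.5% of all tested genes), with a median of 0.26 against -0.03 for all tested genes. This shift rested in part on young 1. Without young 1 the members' median was 0.10, and without young 1 and young 2 together it was 0.077 for the same members. Low values in young 1 were not limited to Rab genes. It alone held the lowest level of 10 of the 46 members (21.7%) and of 18.2% of all tested genes, and it had the fewest genes with a count (10576, against 10815 to 12073 in the other libraries). The median over members cannot show that single genes changed, and it was not tested.

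Levels of different Rab genes were compared per length, as CPM per kilobase of exon in GENCODE M21, which may differ from the gene models behind the counts. In old HSCs Rab38 was the highest (586 ± 115 CPM per kilobase), followed by Rab2a (368 ± 40.1) and Rab11a (303 ± 43.9). In young HSCs Rab2a (296 ± 51.6) and Rab38 (292 ± 45.6) did not differ beyond their spread, and Rab11a (152 ± 27.2) was lower. Rab24, Rab4b, Rab2b and Rab43, whose exons largely overlap another gene model, were left out of this order. Over the young libraries, the members of at least 50 CPM had a median coefficient of variation of 26.8% (10.9% to 69.3%) against 32.9% for all tested genes of that level.

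Genes that load, switch and read Rabs were listed from general knowledge. None of the 7 tested genes of prenylation and extraction, 34 exchange factors, 34 GTPase-activating proteins and 40 effectors passed the edgeR threshold, and their median log2 fold changes were 0.05, -0.17, -0.23 and -0.23. At an unadjusted p under 0.05 there were 1, 0, 2 and 1, together 4 of 115 tested (3.48%, against 9.12% of all tested genes). DESeq2 called Rabac1 higher in old HSCs (2.45% of all genes) and Evi5l and Sgsm3 lower (2.61%). Rabac1, the Rab acceptor that loads prenylated Rabs onto membranes, had 700.4, 472 and 491 CPM in the old and 203, 362, 141 and 249.9 CPM in the young libraries. The groups did not overlap (log2 fold change 1.21 ± 0.32, edgeR adjusted p = 0.191, DESeq2 adjusted p = 0.0132), and the edgeR fit to genes of at least 50 CPM called it (adjusted p = 0.0477). Gdi2, a dissociation inhibitor that extracts Rabs from membranes, averaged 467 ± 70.4 CPM (old) and 348 ± 68.8 CPM (young) (adjusted p = 0.657).

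Among exchange factors, Rab3gap2, a subunit of the complex that activates Rab18 and inactivates Rab3, averaged 23.2 ± 9.1 CPM (old) and 51.8 ± 17.2 CPM (young) (adjusted p = 0.598). Madd, an activator of Rab3 proteins, averaged 9.87 ± 6.42 and 37.5 ± 26.0 CPM, with 0.731 CPM in young 2 (adjusted p = 0.777). Among GTPase-activating proteins, Sgsm3 was without counts in old HSCs and had 3.64, 0, 27.1 and 13.7 CPM in the young, at least 104-fold lower in old on the group means (edgeR adjusted p = 0.304, DESeq2 adjusted p = 0.00145). Evi5l had no count in the old libraries either, and 7.67, 14.6, 5.02 and 0 CPM in the young, at least 63.6-fold lower in old (edgeR adjusted p = 0.331, DESeq2 adjusted p = 0.00881). In both genes 1 young library was also without a count, and both passed the filter on low counts through young libraries alone. The bound was 53.8-fold for Sgsm3 without young 3 and 39.5-fold for Evi5l without young 2. Tbc1d10b averaged 2.83 ± 4.41 CPM (old) and 14.7 ± 18.9 CPM (young), with 43.0 CPM in young 1. Among effectors, Exoc6b, a subunit of the exocyst, had 85.5, 77.4 and 176 CPM in the old and 21.3, 4.89, 53.6 and 40.8 CPM in the young libraries, which did not overlap (log2 fold change 1.90 ± 0.70, adjusted p = 0.384). Inpp5b, a phosphoinositide phosphatase that binds Rabs, averaged 65.2 ± 47.4 and 152 ± 89.9 CPM, with 287 CPM in young 1 (adjusted p = 0.612).

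**Figure D4:**
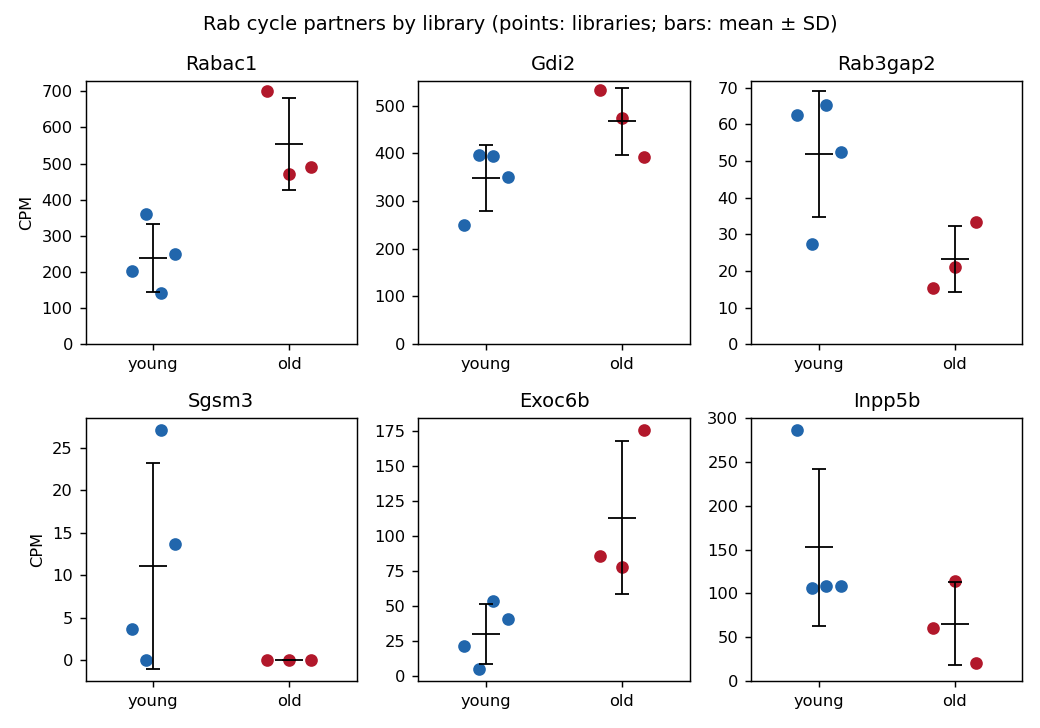
Levels of 6 Rab cycle partners in CPM (y axis, linear, separate scale for each gene) in the 4 young and 3 old libraries, with points for libraries and bars for mean ± SD. Rabac1 and Exoc6b are higher in every old than in every young library, and Sgsm3 lacks counts in old HSCs and in young 2.

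**Figure D5:**
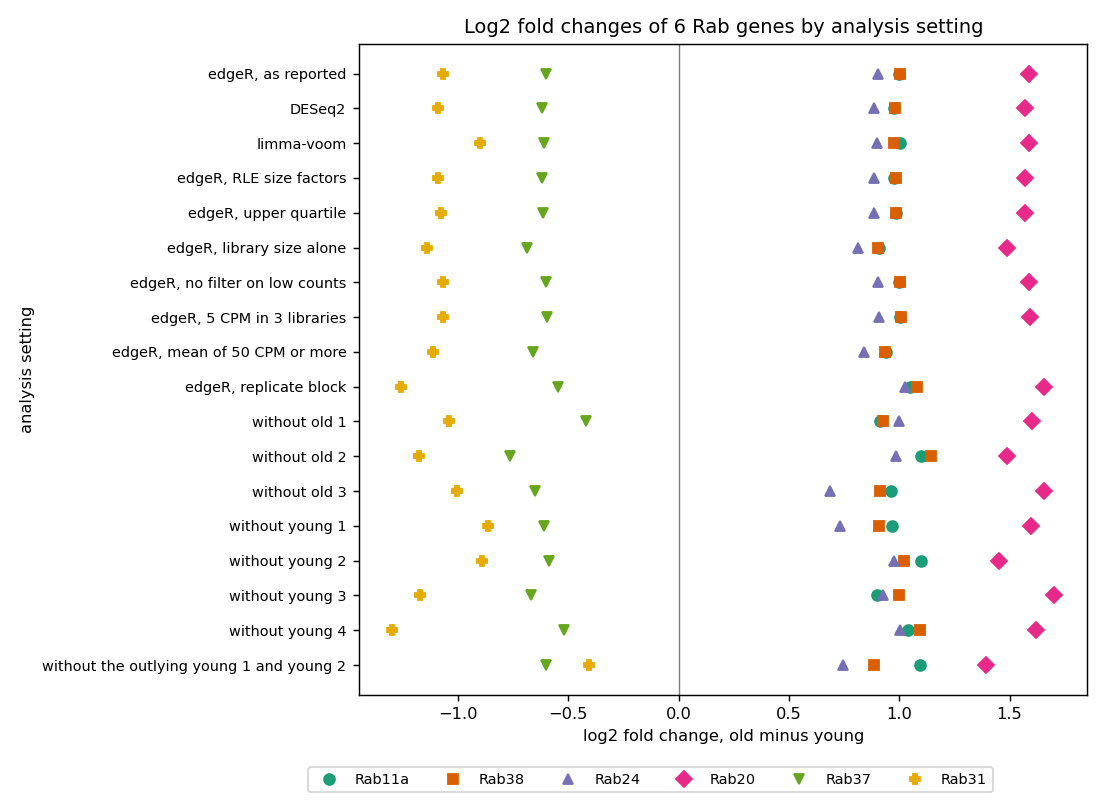
Log2 fold change, old minus young (x axis), of 6 Rab genes under each analysis setting (y axis). All 6 keep their sign in each setting shown, and Rab31 moves from -1.07 to -0.41 without young 1 and young 2.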

How the data were processed

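Bulk RNA of 3 old and 4 young HSC libraries was analysed. Per the labels' protocols, cDNA was made with Smart-seq+ and libraries with Nextera XT, a kit that keeps no strand information. Trimmomatic, FastQC, STAR, featureCounts and the mm9 build are listed per the submitters' processing notes. Tool versions and annotation were not given in the sources used here. Raw read counts per gene symbol, neither scaled nor pooled, make up the table deposited by the authors. No molecular identifiers are stated, so counts may include amplification copies.

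The whole table was fitted with edgeR 4.0.16 in R 4.3.3 (filterByExpr with minimum count 10 and total 15, TMM, glmQLFit, glmQLFTest, 2-sided, group as the only term), with Benjamini-Hochberg adjustment over all 11506 tested genes and a threshold of 0.05. Each SE was obtained from the log2 fold change and its F statistic. Alternatives used DESeq2 1.42.0, limma-voom (limma 3.58.1), other scalings, filters and thresholds, a replicate block and leaving out each library. DESeq2 and the fit to genes of 50 CPM without each library, the fit without young 1 and young 2, and the bounds without each young library, were added after the data were examined. A bound against a group without counts uses 3 counts per library, averaged over the group.

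Members, compartments and partner lists were chosen with earlier results of these data known. Named in full are, per compartment, the 3 members with the smallest p, all members called by edgeR or whose groups did not overlap, the 3 steadiest members of at least 50 CPM, and the called partners and the 2 partners with the smallest p per list with at least 10 CPM in a group. Others were named after their values were seen. Exon lengths and overlaps come from GENCODE M21 (GRCm38), so no positions of the counts are given.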

Additional observations from a re-analysis of the deposited data

Results flagged for a closer look

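In the young group, 1 library lay far from the 3 others for 5 of 54 genes examined. The flag was a Dixon test, the gap to the nearest library over the range of the group. Its chance rate of about 1 gene in 20 holds for normally distributed values. Here it was applied to CPM, and Rab34, Rab44 and Rab19 had young libraries without a count. That rate therefore cannot be used here, and whether 5 flags exceed chance was not tested. Young 3 had 5.17 CPM of Rab34, and the rest of the group had 0 to 0.592 CPM. Rab44 was at 6.39 CPM in young 2 against 0 to 0.131 CPM. Rab19 was at 7.62 CPM in young 3 against 0 to 1.01 CPM. Tbc1d10b was at 43.0 CPM in young 1 against 3.15 to 6.48 CPM, and Inpp5b at 287 CPM in young 1 against 106 to 109 CPM.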

How the results depend on the processing

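With edgeR, 29 genes of the table were called, 27 higher and 2 lower. The count was 591 with DESeq2 (286 higher, 305 lower), 50 with limma-voom (49 higher, 1 lower), 130 among genes of at least 50 CPM (79 higher, 51 lower), 16 with library size alone, 49 at an adjusted p under 0.10, 2 to 18 without 1 library and 7 without young 1 and young 2. Of the Rab genes, 0 were called with edgeR in each of these settings but the fit to genes of 50 CPM, which called 2 (0 to 2 without 1 library, and 0 without old 1, old 3, young 1 or young 3). Without young 4 that fit called 1, Rab31, as lower. DESeq2 called 3 (2 to 5 without 1 library, and 5 without young 2). Partners called were 0 with edgeR, 3 with DESeq2 and 1 at 50 CPM. The Rab median of 0.26 was 0.10 to 0.30 without 1 library (0.10 without young 1) and 0.077 without young 1 and young 2. The Golgi median of 0.43 was 0.91 with limma-voom and 0.35 to 0.65 without 1 library (0.65 without old 1). The late endosome median of 0.21 was 0.84 at 50 CPM, 0.19 to 0.69 without 1 library (0.69 without old 3) and 0.74 without young 1 and young 2. The recycling median of -0.12 was -0.23 to 0.14 without 1 library (0.14 without old 1, 0.10 without young 1) and 0.064 without young 1 and young 2. The early endosome median of 0.05 was -0.156 to 0.23 without 1 library and -0.145 at 50 CPM, the secretory median of -0.02 was -0.274 to -0.009, and that of other Rabs, 0.35, was 0.008 to 0.615. Over all 46 tested members the sign differed between fits without 1 library for 18 and did not for 28. The 18 were Rab3a, Rab8a, Rab8b, Rab11b, Rab12, Rab13, Rab17, Rab21, Rab22a, Rab23, Rab27a, Rab32, Rab35, Rab39b, Rab40b, Rab40c, Rab42 and Rab43. Among members named in full, the sign reversed for Rab23 without old 2 (-0.279) or young 2 (-0.048), with a highest value of 0.707 without young 4, for Rab40b without old 1 (-0.072), with a highest of 0.977 without young 2, for Rab4b without young 1 and young 2 (0.022), for Rab8a without old 1 (0.10), old 2 (0.14), young 1 (0.07) or young 1 and young 2 (0.091), with a lowest of -0.365 without old 3, and for Rab11b with library size alone (-0.028), at 50 CPM (-0.002) or without old 3 (-0.09). The cause of these shifts was not tested. Libraries of the same replicate number did not pair (correlations of 0.019, -0.099 and 0.016). With a replicate block, to which young 4 adds nothing since no old library shares its number, edgeR called 0 genes and 0 Rab genes, and the median was 1.07 for Golgi and 1.04 for other Rabs.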
